A study of Mus musculus with 2 samples.

Results

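The genes described here are 10 of the 32285 genes counted in CD45+ leukocytes of mouse brown adipose tissue (BAT). They encode inflammatory cytokines and their antagonists and regulators, and were chosen by name: Il1b, Tnf and Il18 (cytokines), Il1rn, Il1r2 and Il18bp (antagonists), Il10 (an inhibitory cytokine), Nlrp3 and Casp1 (inflammasome), and Tnfaip3 (a feedback inhibitor). All 10 were counted in both libraries. The study used 3′ single-cell RNA sequencing to ask how BAT leukocytes differ when adipocytes lose ATGL, the triglyceride lipase encoded by Pnpla2. One library came from vehicle-treated and one from tamoxifen-treated C57Bl/6 males of the genotype AdipoQ-CreERT2 ATGLfl/fl. The first is called control and the second Adipo Δ/Δ. Both were 16 weeks old by the labels, whereas the text of the study describes younger mice, and this was not resolved here. Tamoxifen or vehicle was injected every 2 days for 1 week and the mice rested for 2 weeks. The Cre is driven by the adiponectin promoter, so the deletion is expected in adipocytes, which the CD45+ Dapi- sort removes. Pnpla2 in the sorted leukocytes (38.8 CPM, counts per 1000000 UMIs, in control against 44.1 in Adipo Δ/Δ) therefore does not check it. No group carried tamoxifen without the floxed alleles, so the drug and the deletion cannot be told apart, and the number of mice behind each library was not given in the sources used here.

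With 1 library per condition there was no replicate, and no difference between the conditions could be tested. Every interval below is a 95% interval that covers counting error only, and PCR or mouse-to-mouse variation is not in it. Intervals of summed UMIs and of their ratios also leave out variation between cells. They are too narrow where UMIs differ much from cell to cell, and whether 2 of them overlap is a description only. After filtering, 2279 control and 2016 Adipo Δ/Δ cells were kept, with 10753113 and 11316418 UMIs and medians of 3678.0 and 3942.0 UMIs per cell. 4 cell barcodes occurred in both libraries. A member was called higher or lower when its CPM ratio (Adipo Δ/Δ over control) within a cell class was at least 1.5 or at most 0.67 and the class held at least 20 UMIs of it over both libraries. In summed UMIs, a class with fewer expressing cells and one with less RNA per cell cannot be told apart.

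IL-1β and TNF are secreted early by myeloid cells and act through receptors that switch on NF-κB. IL-1β and IL-18 are made as inactive precursors and are cut by caspase-1, which is activated on the NLRP3 inflammasome. The pathway is held in check at several levels: IL-1 receptor antagonist (Il1rn) occupies the receptor without signalling, IL-1R2 (Il1r2) is a decoy receptor, IL-18 binding protein (Il18bp) neutralises IL-18, IL-10 (Il10) limits cytokine production by myeloid cells, and A20 (Tnfaip3) is induced by NF-κB and ends its signal.

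Positions are those of the mouse build GRCm38 with GENCODE M21 genes. Il1b (ENSMUSG00000027398) is at chr2:129364570-129371139 on the minus strand and Il1rn (ENSMUSG00000026981) at chr2:24336853-24351494 on the plus strand. Il1r2 is at chr1:40074079-40125231, Tnf at chr17:35199381-35202007, Il18 at chr9:50554827-50581840, Il18bp at chr7:102014885-102018690, Il10 at chr1:131019845-131024974, Nlrp3 at chr11:59541568-59566956, Casp1 at chr9:5298517-5307265 and Tnfaip3 at chr10:19000910-19015657. Il1r2 shares bases with an annotated gene on its own strand (Gm37347), and Il1b, Il18 and Il18bp with genes on the other strand.

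The promoters below belong to the cytokine with the most UMIs, to its antagonist, to Tnf and to the feedback inhibitor. They are shown because NF-κB is known to act on several of these genes. RefSeq (GRCm38.p6) gave 13 transcription starts for 9 of the 10 members. Windows of 250 bases before each start were searched on both strands for TATAAA and for the kappa B consensus, the sequence bound by NF-κB. TATAAA was found at 4 of the 13 starts, against 12.4% of all 32851 promoters, and the kappa B consensus at 2, against 3.90%. A match is a description of the letters and not a measured binding site. Capitals mark the matches, the sequence runs 5′ to 3′ on the gene's strand, and bases that GENCODE places in an exon were left out.

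Il1b, chr2:129371140-129371389, minus strand, TATAAA at position -31 from the start: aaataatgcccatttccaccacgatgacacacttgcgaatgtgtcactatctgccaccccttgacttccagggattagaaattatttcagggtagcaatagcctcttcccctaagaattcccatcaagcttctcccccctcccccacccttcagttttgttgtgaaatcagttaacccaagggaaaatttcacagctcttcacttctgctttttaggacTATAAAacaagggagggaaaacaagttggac

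Tnf, chr17:35202008-35202257, minus strand, TATAAA at position -29: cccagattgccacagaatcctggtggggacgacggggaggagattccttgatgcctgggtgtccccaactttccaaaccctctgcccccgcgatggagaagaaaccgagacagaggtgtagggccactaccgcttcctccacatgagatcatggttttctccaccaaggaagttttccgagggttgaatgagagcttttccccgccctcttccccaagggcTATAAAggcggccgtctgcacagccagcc

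Tnfaip3, chr10:19015411-19015547, minus strand, kappa B matches at positions -125 and -12: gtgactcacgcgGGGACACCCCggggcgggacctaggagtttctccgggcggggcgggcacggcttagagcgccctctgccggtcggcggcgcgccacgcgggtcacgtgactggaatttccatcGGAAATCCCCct

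Il1rn, chr2:24345041-24345287, plus strand, a start inside the gene, no match to either motif: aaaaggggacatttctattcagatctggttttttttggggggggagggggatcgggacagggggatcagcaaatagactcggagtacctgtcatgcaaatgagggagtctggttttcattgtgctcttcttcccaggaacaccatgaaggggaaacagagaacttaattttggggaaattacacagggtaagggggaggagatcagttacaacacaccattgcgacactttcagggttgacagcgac

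The Il1b and Tnf windows each held 1 TATAAA close to the start and no kappa B match. In Tnfaip3 both matches were to kappa B, and the bases shown lay inside the gene as GENCODE places it. A further TATAAA at -225 lay in bases not shown.

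Cells were grouped into 19 clusters without using the members, and the clusters were named from marker genes. They comprised neutrophil-like cells (S100a8, S100a9, Retnlg), Ly6C high monocyte-like cells (Chil3, Vcan, Ly6c2), Ly6C low monocyte-like cells (Ace, Treml4, Cd300e), macrophage-like cells (Adgre1, C1qa, Mertk), and dendritic cell-, T cell-, B cell-, NK cell-, ILC2-, plasma cell- and dividing cell-like clusters. The shorter names used from here on stand for these marker-based classes. Within macrophages, a matrix group (Fn1, Ecm1, Fcrls), a lipid-associated group (Trem2, Gpnmb, Lpl) and an M2-like group (Mrc1, Clec10a, Folr2) were set apart, and 1 cluster without a named subset remained. The matrix group was the weakest fit to the class. It entered by its subset markers, with a mean z score of 2.2 against 0.25 for the macrophage list, and its macrophage markers summed to 1397 and 1198 CPM, less than in Ly6C low monocytes (1631 and 2143 CPM). Ly6C low monocytes comprised a Cd300e cluster and a Gngt2 cluster. 2 clusters, led by Cd7 and Gm26917, stayed unnamed.

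Neutrophils numbered 314 in control against 171 in Adipo Δ/Δ, Ly6C high monocytes 376 and 179, Ly6C low monocytes 343 and 282, and macrophages 199 and 581. The macrophage class was composed differently in the libraries. It held 83 control and 215 Adipo Δ/Δ cells of no named subset, 48 and 172 matrix, 12 and 77 lipid-associated and 56 and 117 M2-like cells. T cells were also composed differently. The cluster led by Dapl1 held 197 control and 82 Adipo Δ/Δ cells, that led by Cd8a 90 and 108, and that led by Lef1 67 and 53. The part of this mix in the T cell ratios of Tnf and Casp1 was not tested.

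Il1b, which encodes IL-1β, was the most confined of the cytokines. Neutrophils were 13.8% of control cells and held 91.6% (90.9 to 92.2) of 6772 Il1b UMIs. In Adipo Δ/Δ they were 8.48% of cells and held 85.9% (85 to 86.9) of 5403. Over all kept cells Il1b was 629.8 CPM in control against 477 CPM in Adipo Δ/Δ, so the level per library was lower in Adipo Δ/Δ although it was higher within neutrophils.

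**Figure D1:**
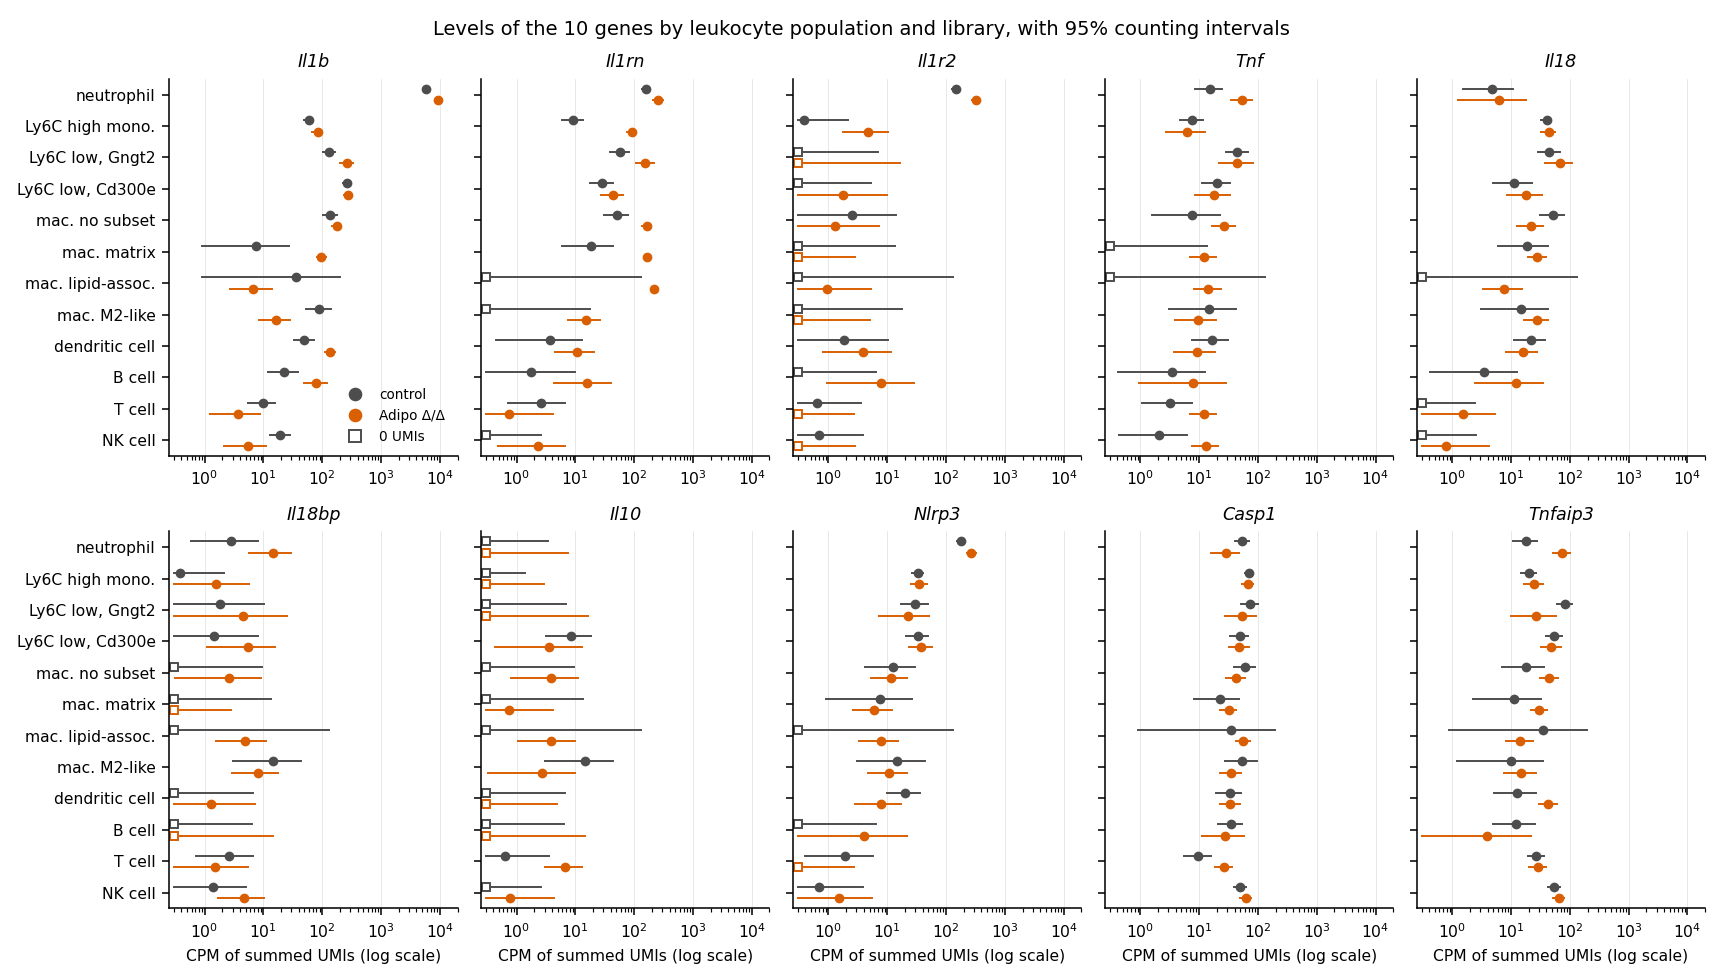
Level of each of the 10 members (CPM, log axis) in 12 cell populations of the control (grey) and Adipo Δ/Δ (orange) libraries. Bars are 95% counting intervals and open squares mark 0 UMIs. Il1b and Il1r2 stand highest in neutrophils in both libraries, whereas Casp1 and Tnfaip3 are spread over many populations.

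In neutrophils Il1b was 5815 CPM (5671 to 5962, 6200 UMIs) in control against 9472 CPM (9202 to 9749, 4643 UMIs) in Adipo Δ/Δ. The ratio was 1.63 (1.57 to 1.69), and it stayed between 1.48 and 1.70 over 10 other ways of processing the data. The 1.48, by the mean of per-cell CPM, was under the fold used for calling. None of these ways relaxed the cell filters, and the barcodes left out held 1441 Il1b UMIs in control against 209 in Adipo Δ/Δ. The difference within kept neutrophils was spread over the cells. After every cell was thinned to 1000 UMIs, the median Il1b count per neutrophil was 6.0 in control (293 cells) against 9.0 in Adipo Δ/Δ (155 cells), 5.80% and 1.29% of cells had none, and 27.0% and 48.4% had at least 10. The share with any Il1b UMI was 94.2% and 98.7% after thinning and 96.8% and 99.4% before it. B cells, which should lack the transcript, gave 2.84% and 2.53% after thinning. Median depths before thinning were 2968.5 and 2695.0 UMIs in neutrophils and 1803.0 and 1986.0 in B cells.

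**Figure D2:**
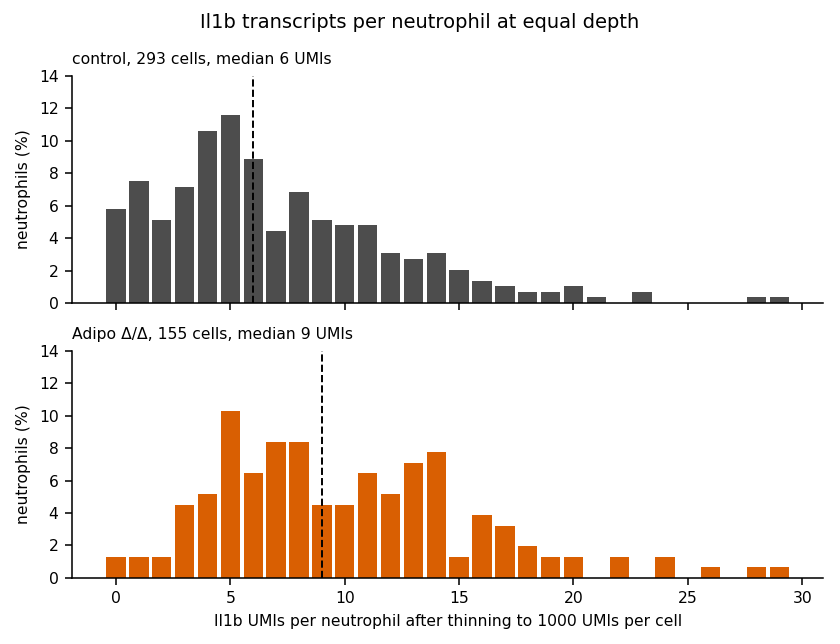
Distribution of Il1b UMIs per neutrophil after thinning to 1000 UMIs, as the percentage of cells at each count, for the control (293 cells) and Adipo Δ/Δ (155 cells) libraries. The dashed line marks the median, 6.0 in control against 9.0 in Adipo Δ/Δ. The quartiles are also higher in Adipo Δ/Δ, while counts run from 0 to 29 in both libraries.

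Other features of the neutrophils differed between the libraries as well, and their part in the Il1b difference was not tested. The summed level of the 10 neutrophil markers was 262725 CPM in control against 195903 CPM in Adipo Δ/Δ, with 3 of 10 higher and 7 lower. Per 100 UMIs of S100a8 and S100a9 there were 2.46 Il1b UMIs in control against 5.44 in Adipo Δ/Δ. Immediate early and stress genes, which can be induced by tissue digestion, summed to 18209 and 23186 CPM, with 15 of 16 higher in Adipo Δ/Δ. The median mitochondrial share of a neutrophil was 1.72% in control against 0.383% in Adipo Δ/Δ. At a finer clustering, neutrophils split into a cluster led by Retnlg (139 control and 109 Adipo Δ/Δ cells) and a cluster led by Lcn2 (175 and 62). Il1b was higher in Adipo Δ/Δ in both, at 5375 against 8515 CPM in the first and 6361 against 12538 CPM in the second.

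In each library no other population had an Il1b level whose interval reached that of neutrophils. The next was the Cd300e cluster of Ly6C low monocytes, at 265 CPM (228 to 306) in control against 277 CPM (235 to 325) in Adipo Δ/Δ, a ratio of 1.05 (0.841 to 1.30). In control it stood clear of the macrophages without a subset (137 CPM) and the Gngt2 cluster (132 CPM), whose intervals overlapped each other. In Adipo Δ/Δ the Gngt2 cluster was at 263 CPM and overlapped the Cd300e cluster. Its ratio was 1.99 (1.38 to 2.85), but 1 cell held 22 of its 59 UMIs and the ratio was 1.37 with the highest cell of each library left out.

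The same held more widely for Il1b outside neutrophils in Adipo Δ/Δ, where few cells carried a large part of the UMIs, and less so in control. Cells with at least 10 Il1b UMIs numbered 5 in control (73 UMIs) against 17 in Adipo Δ/Δ (381 UMIs). In macrophages such cells held 15 of 75 UMIs in control against 174 of 284 in Adipo Δ/Δ, and in Ly6C low monocytes 13 of 256 against 61 of 214. None of the 5 control cells and 9 of the 17 Adipo Δ/Δ cells also had Il1rn UMIs.

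Over all macrophages Il1b was 83.7 CPM in control against 73.2 CPM in Adipo Δ/Δ, a ratio of 0.874 (0.676 to 1.14) that was 1.27 by the mean of per-cell CPM. Without the cells of at least 10 UMIs, the ratio was 0.429 (0.310 to 0.597). Neutrophil markers in the same macrophages summed to 1192 CPM in control against 195 CPM in Adipo Δ/Δ, with 10 of 10 lower, and Ly6C high monocyte markers to 4059 and 1547 CPM, with 7 of 7 lower. Their part in the result was not tested. In matrix macrophages Il1b was 2 UMIs (7.41 CPM) against 127 UMIs (96.0 CPM), a ratio of 13 (3.52 to 108), but 98 of the 127 UMIs were in 2 cells and 75 in 1 of them. Without those 2 cells the ratio was 3.08 (0.780 to 26.7). In M2-like macrophages 15 of 18 control UMIs were in 1 cell that also had 423 UMIs of S100a8 and S100a9, and the ratio of 0.184 (0.0808 to 0.403) became 1.06 (0.287 to 5.88) without it. Dendritic cells were at 49.4 and 136 CPM (ratio 2.75, 1.79 to 4.37). 5 of the 117 Adipo Δ/Δ dendritic cells held 89 of 104 UMIs, and without cells of at least 10 UMIs the ratio was 0.767 (0.349 to 1.68).

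Ly6C high monocytes had 58.9 CPM of Il1b in control against 83.6 CPM in Adipo Δ/Δ, a ratio of 1.42 (1.10 to 1.83). Its direction was not stable, since it was 0.834 when the 47 genes dropped from clustering (members, pathway genes and genes named in the study) were kept. The ratio was 0.846 at the mitochondrial limit of 2% that the study used, and 1.03 (0.753 to 1.39) without cells of at least 10 UMIs. Ly6C low monocytes together gave 1.32 (1.09 to 1.59), and 1.02 (0.829 to 1.26) without such cells. Among lymphocytes, 1 cell held 17 of 20 Il1b UMIs in Adipo Δ/Δ B cells (22.7 against 79.2 CPM, ratio 3.50) and 1 cell held 15 of 28 in control NK cells (19.5 against 5.39 CPM, ratio 0.276). T cells had 15 UMIs in control against 5 in Adipo Δ/Δ, with no such cell. The B cell with 17 Il1b UMIs also had 128 UMIs of S100a8 and S100a9, and the NK cell with 15 had 67.

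**Figure D3:**
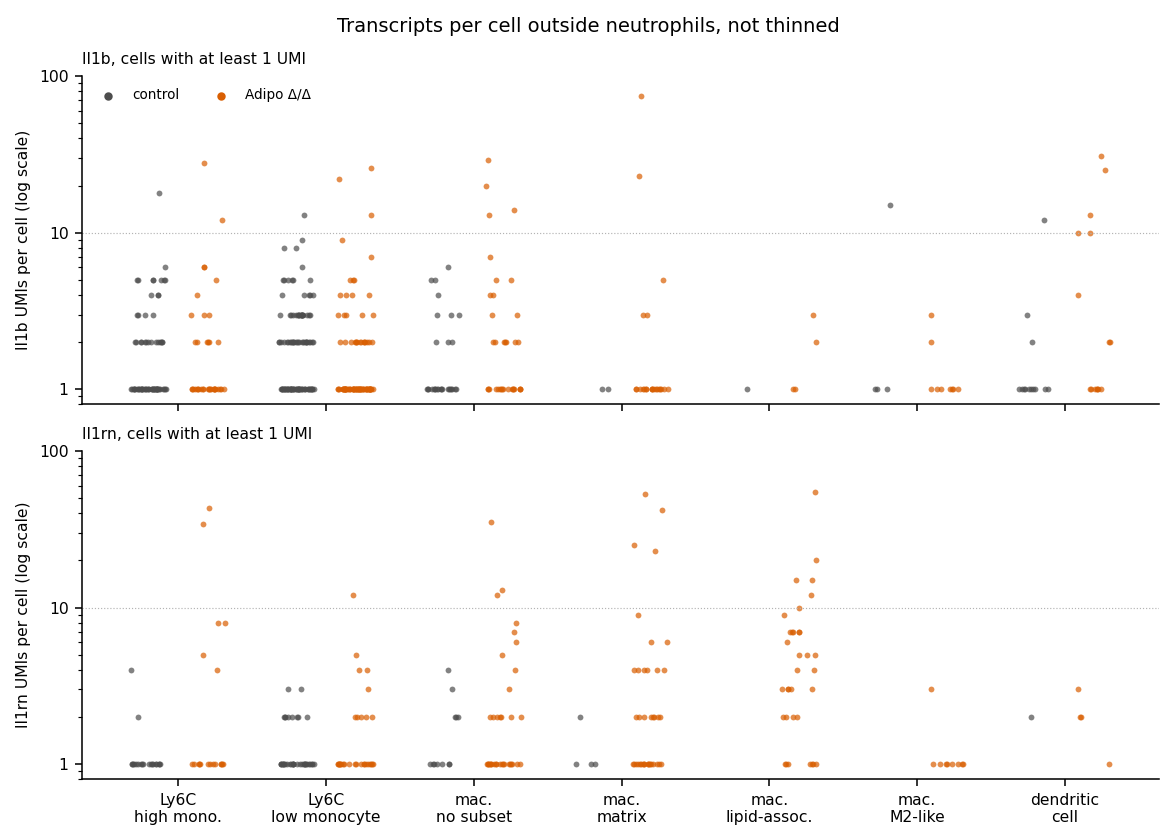
UMIs per cell of Il1b (top) and Il1rn (bottom) in 7 populations outside neutrophils, unthinned, 1 point per cell, with the dotted line at 10 UMIs. Over all populations outside neutrophils, 5 control and 17 Adipo Δ/Δ cells reach 10 Il1b UMIs. Of these, 1 control NK cell and 1 Adipo Δ/Δ B cell are not plotted. No control cell but 16 Adipo Δ/Δ cells reach 10 Il1rn UMIs.

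Tnf was sparse, with 101 UMIs in control (9.39 CPM) against 179 in Adipo Δ/Δ (15.8 CPM). Ly6C low monocytes held 37.6% of the control UMIs and 11.2% of those in Adipo Δ/Δ, and macrophages 5.94% and 33.0%. Within Ly6C low monocytes the level was 30.8 CPM in control against 25.5 CPM in Adipo Δ/Δ (ratio 0.830, 0.458 to 1.46), and within macrophages 6.70 and 15.2 CPM (6 and 59 UMIs, ratio 2.27, 0.983 to 6.44). The macrophage interval included 1. In neutrophils 16 UMIs (15.0 CPM) stood against 26 (53.0 CPM), a ratio of 3.53 (1.83 to 7.05). 18 of those 26 UMIs were in 1 cell, and without the highest cell of each library the ratio was 1.25 (0.453 to 3.18). In macrophages without a subset Tnf was 7.61 and 26.9 CPM (3 and 21 UMIs, ratio 3.54, 1.06 to 18.5). NK cells were at 2.09 and 13.1 CPM (3 and 17 UMIs, ratio 6.27, 1.81 to 33.4), but 12 of the 17 were in 1 cell, and without the highest cell of each library the ratio was 2.79 (0.457 to 29.3). T cells had 5 and 16 Tnf UMIs, 3.24 and 12 CPM (ratio 3.71, 1.30 to 12.9), with at most 2 in a cell in Adipo Δ/Δ. In the order of levels, the intervals of all neighbouring populations overlapped in both libraries.

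Il18 showed another distribution, with almost none in neutrophils (5 UMIs in control against 3 in Adipo Δ/Δ). Ly6C high monocytes held 56.5% of its control UMIs and 27.8% of those in Adipo Δ/Δ, and macrophages 15.1% and 41.4%. The level within Ly6C high monocytes was nearly the same, 40.2 CPM in control against 43.4 CPM in Adipo Δ/Δ (ratio 1.08, 0.765 to 1.51). The level over all macrophages was 31.2 and 21.1 CPM (ratio 0.676, 0.435 to 1.08). This direction was not stable either, with a ratio of 1.07 when the 47 genes dropped from clustering were kept. At a clustering resolution of 2.0 it was 1.31, and the control level was 15.8 CPM. At that resolution a cluster led by Aif1 was unnamed and outside the macrophage class, and its cells held 19 of the 28 control Il18 UMIs. By macrophage group, Il18 was 50.7 and 21.8 CPM in those without a subset (ratio 0.430, 0.211 to 0.864). It was 18.5 and 28.0 CPM in matrix macrophages (5 control UMIs, ratio 1.51, 0.592 to 4.92). M2-like macrophages were at 14.7 and 27.1 CPM (3 control UMIs, ratio 1.84, 0.545 to 9.66). The intervals of these ratios overlapped, and a difference between the groups was not shown. Lipid-associated macrophages of Adipo Δ/Δ had 8 Il18 UMIs (7.69 CPM). The macrophages without a subset also differed in depth, at medians of 3580.0 and 1217.0 UMIs per cell, and in Ly6C high monocyte markers, at 6660.5 and 2086 CPM. The part of either in the Il18 value was not tested. The highest Il18 levels in control, in macrophages without a subset, the Gngt2 cluster and Ly6C high monocytes, did not differ beyond their intervals.

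Il1rn, the receptor antagonist, had a different main source in each library. Of 283 Il1rn UMIs in control, 59.7% were in neutrophils and 8.83% in macrophages. Of 921 in Adipo Δ/Δ, 13.6% were in neutrophils and 64.1% in macrophages, a class that made up 8.73% of the control cells and 28.8% of those of Adipo Δ/Δ. Over all kept cells it was 26.3 CPM in control against 81.4 CPM in Adipo Δ/Δ.

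**Figure D4:**
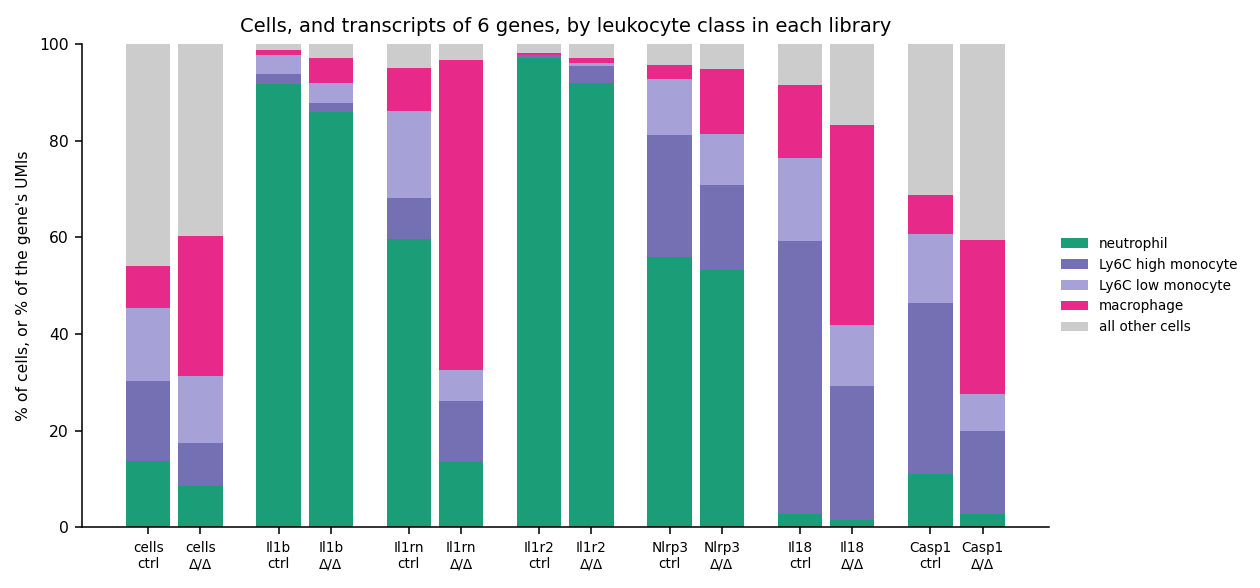
Share of cells (first bars) and of the UMIs of Il1b, Il1rn, Il1r2, Nlrp3, Il18 and Casp1 (percent, stacked) that came from neutrophils, Ly6C high and Ly6C low monocytes, macrophages and all other cells in each library. The macrophage share of Il1rn UMIs is 8.83% in control against 64.1% in Adipo Δ/Δ, while Il1b and Il1r2 stay mostly with neutrophils.

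Within macrophages Il1rn was 27.9 CPM (25 UMIs) in control against 152 CPM (590 UMIs) in Adipo Δ/Δ, a ratio of 5.45 (3.65 to 8.49). The share of macrophages with an Il1rn UMI was 8.04% and 20.3%, and after thinning to 1000 UMIs 4.26% (1.85 to 8.21) and 8.54% (6.20 to 11.4), intervals that overlap. B cells gave 0 of 211 thinned cells in control, which allowed up to 1.42% (3 counts of the total), and 1.27% in Adipo Δ/Δ. No control macrophage had 10 Il1rn UMIs. With such cells left out of the Adipo Δ/Δ library, the ratio was 2.53 (1.67 to 3.98), so the direction did not rest on them but the size did. Over 11 other ways of processing the ratio lay between 2.53 and 14.1. The latter was at a clustering resolution of 2.0, where the cluster led by Aif1 was unnamed and outside the macrophage class. Its cells held 19 of the 25 control Il1rn UMIs.

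At the main clustering, the lipid-associated macrophages of Adipo Δ/Δ had the highest ratio of antagonist to agonist UMIs among the macrophage groups. They had 230 Il1rn UMIs (221 CPM, 193 to 251) in 34 of 77 cells, and 7 Il1b UMIs (6.73 CPM). 6 cells held 127 of the 230, with 55 in the highest. The median depth of 12900.0 UMIs per cell was above that of the other macrophage groups, and after thinning 18.2% of cells had an Il1rn UMI. The 12 control cells of the group had no Il1rn UMI, which at their depth allowed up to 106 CPM (3 counts of the total), too few for a comparison.

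Matrix macrophages had 5 and 222 Il1rn UMIs, 18.5 and 168 CPM (ratio 9.06, 3.83 to 28.2). 4 Adipo Δ/Δ cells held 143 of these, and without them the ratio was 3.36 (1.38 to 10.6). Macrophages without a subset were at 50.7 and 163 CPM (ratio 3.21, 1.99 to 5.43, and 1.81, 1.08 to 3.14, without cells of at least 10 UMIs). At the finer clustering (resolution 2.0) they divided mainly into cells led by Lpl and Lgmn (30 control and 148 Adipo Δ/Δ cells) and cells led by Aif1 (52 and 65 cells). Il1rn was 14.6 and 128 CPM in the first (1 and 32 UMIs) and 59.7 and 181 CPM in the second, higher in Adipo Δ/Δ in both. The cluster led by Lpl was named lipid-associated there, and its Adipo Δ/Δ cells had 9 Il1b UMIs. The cluster led by Aif1 was unnamed there. M2-like macrophages had 0 and 11 Il1rn UMIs.

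Il1rn in Ly6C high monocytes was 9.18 CPM in control (24 UMIs) against 90.7 CPM in Adipo Δ/Δ (115 UMIs), a ratio of 9.88 (6.32 to 16.0). 77 of the 115 UMIs were in 2 cells, which also had 40 Il1b UMIs and 152 and 155 UMIs of S100a8 and S100a9. Without cells of at least 10 UMIs the ratio was 3.36 (1.97 to 5.86), at the 2% mitochondrial limit 2.65, and with the 47 dropped genes kept 2.93. The share with a UMI after thinning was 0.824% (0.170 to 2.39) and 4.27% (1.73 to 8.60). Ly6C low monocytes were at 41.3 and 75.4 CPM (ratio 1.82, 1.23 to 2.71), with the Gngt2 cluster at 57.8 and 156 CPM (ratio 2.70, 1.62 to 4.53) and the Cd300e cluster at 28.6 and 42.9 CPM (ratio 1.50, 0.794 to 2.86). In neutrophils Il1rn was 159 and 255 CPM (ratio 1.61, 1.27 to 2.04), with 18.8% and 20.6% of cells positive after thinning. In Adipo Δ/Δ the Il1rn intervals of neutrophils and lipid-associated macrophages overlapped. In control, neutrophils stood clear of the Gngt2 cluster, and only the small Gm26917 cluster (6 UMIs, 194 CPM) overlapped them.

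Antagonist and agonist UMIs were each summed over a class, which does not show their balance within a cell. Their ratio was lower in neutrophils than in the monocyte and macrophage classes in both libraries, with intervals that did not overlap. Neutrophils had 2.73 (2.33 to 3.18) Il1rn UMIs per 100 Il1b UMIs in control against 2.69 (2.24 to 3.22) in Adipo Δ/Δ. With the 47 dropped genes kept among the clustering genes the Adipo Δ/Δ value was 4.31, and the neutrophil ratios were 1.52 for Il1b and 2.40 for Il1rn. Macrophages had 33.3 (20.3 to 53.0) and 208 (180.0 to 240.2), Ly6C high monocytes 15.6 (9.69 to 24.1) and 108 (82.6 to 143), and Ly6C low monocytes 19.9 (14.5 to 27.0) and 27.6 (20.3 to 36.9). Lipid-associated macrophages of Adipo Δ/Δ had 3286 (1569 to 8264). In control the intervals of Ly6C low monocytes overlapped those of both other classes, and those of macrophages and Ly6C high monocytes overlapped each other. The Adipo Δ/Δ values depended on the processing. The 108 of Ly6C high monocytes, where 2 cells held 77 of the 115 Il1rn UMIs, was 51.1 at the 2% limit and 56.1 with the 47 genes kept. The 208 of macrophages was 158 at the 2% limit, 242 with the 47 genes kept and 256 without the highest cell of each library. It was 319 at a clustering resolution of 2.0, where the cells led by Aif1 were outside the class. After thinning, 18.1% of control and 20.6% of Adipo Δ/Δ neutrophils had UMIs of both genes. In macrophages 1.06% and 1.25% had both, 3.19% and 7.29% only Il1rn, and 4.79% and 3.33% only Il1b. Both were found in 0% and 1.83% of Ly6C high and 0.997% and 1.72% of Ly6C low monocytes. A cell with only Il1rn or only Il1b detected may hold the other transcript unseen.

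Il1r2, the decoy receptor, was almost a neutrophil gene, with 97.0% of 165 UMIs in neutrophils in control against 92.0% of 175 in Adipo Δ/Δ. Its neutrophil level was 150.1 CPM (128 to 175) in control against 328 CPM (279.7 to 383) in Adipo Δ/Δ, a ratio of 2.19 (1.75 to 2.74) that lay between 2.04 and 2.41 over 10 other ways of processing. None of these relaxed the cell filters, and the barcodes left out held 35 Il1r2 UMIs in control against 4 in Adipo Δ/Δ. Thinned neutrophils with a UMI were 14.7% (10.8 to 19.3) and 31.6% (24.4 to 39.6), and no thinned B cell had one in either library. At most 6 UMIs in control against 9 in Adipo Δ/Δ were in 1 cell. Over all cells the level was 15.3 and 15.5 CPM, with fewer neutrophils in Adipo Δ/Δ.

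Il18bp and Il10 were too sparse for a comparison. Il18bp had 17 UMIs in control against 37 in Adipo Δ/Δ over all cells, with 3 and 7 in neutrophils and 3 and 13 in macrophages. Il10 had 12 and 26 UMIs. 6 of the 12 control Il10 UMIs were in Ly6C low monocytes, and 9 of the 26 in Adipo Δ/Δ were in T cells, 8 of them in 1 cell. Neutrophils had no Il10 UMI in either library.

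Nlrp3, the inflammasome sensor, followed Il1b. Neutrophils held 55.9% of 340 UMIs in control against 53.2% of 248 in Adipo Δ/Δ, at 178 CPM (154 to 205) and 269 CPM (225 to 319), a ratio of 1.51 (1.20 to 1.90). Processing choices moved this ratio between 1.44 and 1.60, so it stood at the fold used for calling. Ly6C high monocytes (32.9 and 34.7 CPM, ratio 1.05, 0.716 to 1.53) and Ly6C low monocytes (31.6 and 33.2 CPM, ratio 1.05, 0.615 to 1.77) showed no called difference. Macrophages were at 11.2 and 8.5 CPM (ratio 0.762, 0.367 to 1.73). Neutrophils stood clear of the next population in both libraries, and the monocyte clusters after them overlapped.

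Casp1, the protease that cuts the IL-1β precursor, had no such preference for neutrophils. Ly6C high monocytes held 35.5% of 518 UMIs in control against 17.1% of 502 in Adipo Δ/Δ, and macrophages 8.11% and 31.7%. Within these classes the level was nearly the same: 70.4 and 67.8 CPM in Ly6C high monocytes (ratio 0.964, 0.737 to 1.25), and 46.9 and 41.0 CPM in macrophages (ratio 0.874, 0.619 to 1.26). In neutrophils it was lower in Adipo Δ/Δ, 53.5 CPM (57 UMIs) against 28.6 CPM (14 UMIs), a ratio of 0.534 (0.275 to 0.971). It was the only member called lower there. In T cells it was higher, at 9.72 and 26.3 CPM (15 and 35 UMIs, ratio 2.70, 1.44 to 5.33), but their cluster mix differed between the libraries. In NK cells Casp1 was 49.4 and 61.6 CPM (ratio 1.25, 0.894 to 1.74). Intervals of neighbouring populations overlapped throughout the Casp1 order in both libraries.

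Tnfaip3 was spread widely, and its ratio was above 1 in some classes and below 1 in others. In neutrophils it was 17.8 CPM (19 UMIs) in control against 73.4 CPM (36 UMIs) in Adipo Δ/Δ, a ratio of 4.12 (2.30 to 7.61) and 3.58 (1.89 to 6.97) without the highest cell of each library. In dendritic cells it was 12.8 and 43.1 CPM (7 and 33 UMIs, ratio 3.36, 1.46 to 9.01), and in macrophages 14.5 and 26.0 CPM (13 and 101 UMIs, ratio 1.79, 1.00 to 3.48). Ly6C low monocytes were at 66.4 and 42.1 CPM (ratio 0.635, 0.410 to 0.962). The Gngt2 cluster was at 82.1 and 26.8 CPM (44 and 6 UMIs, ratio 0.326, 0.114 to 0.769) and the Cd300e cluster at 54.4 and 48.3 CPM (ratio 0.888, 0.522 to 1.49), with overlapping intervals. NK cells were high in both libraries, 53.6 and 64.7 CPM, and T cells were at 26.6 and 28.5 CPM. Intervals of neighbouring populations again overlapped throughout the order.

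**Figure D5:**
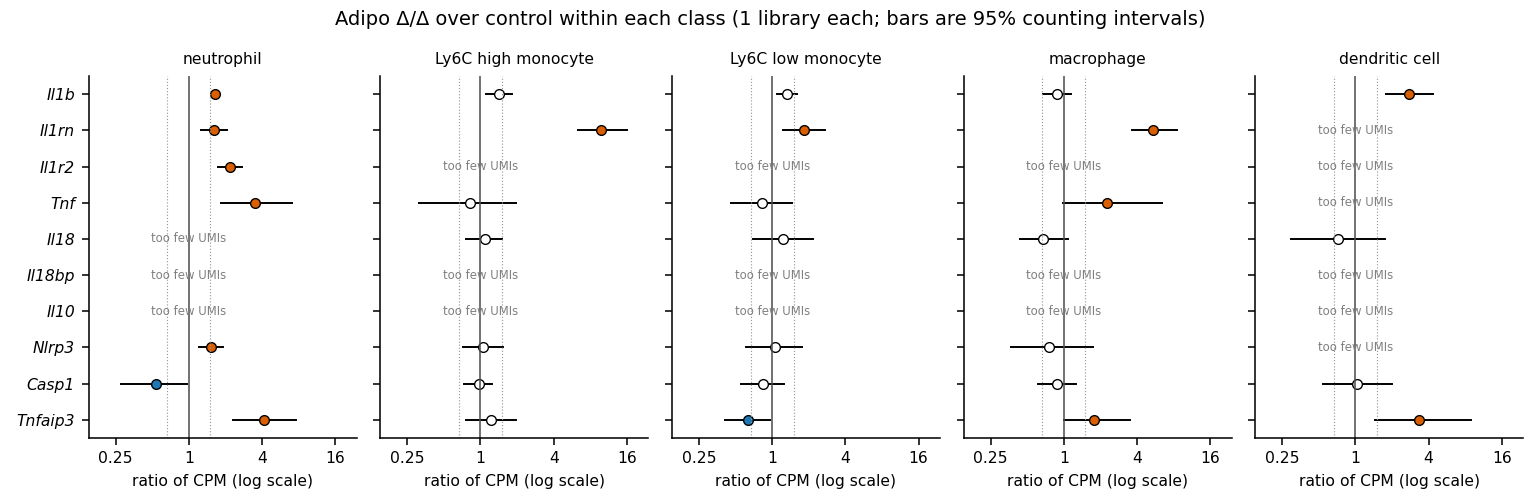
Ratio of CPM (Adipo Δ/Δ over control, log axis) of each member in 5 cell classes with 95% counting intervals. Orange points are past 1.5 upwards, blue points past 0.67 downwards, open points lie between the dotted lines, and members with under 20 UMIs are marked as too few. 6 of 7 members in neutrophils are past 1.5 (22.7% of all genes with enough UMIs), and 1 of 7 in Ly6C high monocytes (12.5%). In neutrophils Tnf is past it through 1 cell, and 3 members are past it at mitochondrial limits of 5% or 2%.

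Read against all genes, neutrophils had the most called members. 7 members had enough UMIs there. 6 were higher in Adipo Δ/Δ, where 22.7% of 4714 genes were, and 1 was lower, where 6.39% were. The members' median log2 ratio was 0.7 and that of all genes 0.26. Without the highest cell, Tnf was not among the 6. At mitochondrial limits of 5% or 2% the members called higher were 3, Il1b (1.69 at 2%), Il1r2 (2.41) and Tnfaip3 (2.80), with Il1rn at 1.42, Nlrp3 at 1.46 and Tnf at 0.973. In Ly6C high monocytes 1 of 7 was higher (12.5% of all genes) and none lower (5.75%), and in Ly6C low monocytes 1 of 7 was higher (13.6%) and 1 lower (6.58%), which is near the background. In macrophages 3 of 7 were higher (21.0%) and none lower (9.97%), with medians of -0.19 for the members and 0.13 for all genes.

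The macrophage groups and dendritic cells had fewer members to read. In matrix macrophages 4 of 5 were higher (23.3%) and none lower (9.14%), in those without a subset 3 of 6 were higher (26.1%) and 1 lower (14.7%), and in M2-like macrophages 1 of 3 was higher (24.8%) and 2 lower (9.03%). In dendritic cells 2 of 4 were higher (20.0%) and none lower (7.76%). Nothing particular to the members can be read from counts this small.

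The rest of the pathway was read from 7 lists with 63 genes, 62 of them in the files, that cover IL-1 family receptors, adaptors and kinases, the inflammasome, TNF receptors, NF-κB and its inhibitors, IL-10 signalling and other mediators. In neutrophils 14 of 44 genes with enough UMIs were higher in Adipo Δ/Δ and 2 lower, against 22.7% and 6.39% of all genes, and nothing particular to the lists is read from these counts. The neutrophil chemokine gene Cxcl2 was 394 CPM in control against 1555 CPM in Adipo Δ/Δ (ratio 3.95, 3.50 to 4.46). Ptgs2, which encodes the prostaglandin-forming enzyme COX-2, was 286 and 745 CPM (2.60, 2.23 to 3.04), and Nfkbia, the NF-κB inhibitor IκBα, 333 and 849 CPM (2.55, 2.21 to 2.94). Birc3, a ubiquitin ligase of TNF receptor signalling, was 68.5 and 159 CPM (2.32, 1.67 to 3.24). By list, 5 of 7 other mediators and 4 of 11 NF-κB genes were higher, against 1 of 7 adaptors and kinases and 1 of 7 inflammasome genes, and counts this small are a description only.

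In the other classes the counts of the lists have to be read against the shares of all genes called there. In Ly6C high monocytes 5 of 47 genes were higher (12.5% of all genes) and 1 lower (5.75%), with Nfkbiz, an NF-κB co-regulator, at 27.2 and 61.5 CPM (2.27, 1.62 to 3.17). In Ly6C low monocytes 3 of 44 were higher (13.6%) and 3 lower (6.58%). Nfkbia was lower there, at 718 and 461 CPM (0.642, 0.566 to 0.726), like Tnfaip3. In macrophages 7 of 48 were higher (21.0%) and 8 lower (9.97%). Of 6 other mediators 5 were higher, among them the chemokine genes, Cxcl2 at 10.0 and 102 CPM (10.2, 5.30 to 22.4), Ccl4 at 21.2 and 96.1 CPM (4.53, 2.86 to 7.61) and Ccl3 at 8.93 and 35.0 CPM (3.92, 1.94 to 9.28). Of 12 NF-κB genes 3 were lower and 9 within the fold, and of 4 TNF receptor genes 1 was lower and 3 within it. Those lower included Nfkbia at 215 and 112 CPM (0.519, 0.437 to 0.618), Tnfrsf1b at 228 and 129 CPM (0.566, 0.480 to 0.669) and Rel at 72.5 and 41.5 CPM (0.572, 0.426 to 0.775). By group, Nfkbia was 59.3 and 96.0 CPM in matrix macrophages (1.62, 0.960 to 2.92) and 375 and 164 CPM in those without a subset (0.437, 0.342 to 0.558), with intervals that did not overlap. Immediate early genes in matrix macrophages summed to 2215 and 3588 CPM, with 15 of 16 higher, and their part in these values was not tested. In matrix macrophages 15 of 40 pathway genes were higher (23.3% of all genes) and 1 lower (9.14%). In those without a subset 8 of 40 were higher (26.1%) and 10 lower (14.7%), in M2-like macrophages 8 of 32 (24.8%) and 3 (9.03%), and in dendritic cells 4 of 33 (20.0%) and 1 (7.76%).

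The genes most like each member in distribution were found over 11 cell populations, which share the library and its depth. Likeness is Pearson's r of log2(CPM + 10), given for control and then Adipo Δ/Δ, over 7895 genes with at least 200 UMIs, as a description. Il1b was most like Clec4d (0.92 and 0.91), Trem1 (0.9 and 0.9) and Trpm2 (0.95 and 0.9), and of the other members most like Nlrp3 (0.92 and 0.9). Il1r2 was most like Nlrp12, Cxcr2 and Mirt2 (0.99 in both libraries for each), and Nlrp3 like Csf3r (0.94 and 0.99), the receptor for granulocyte colony-stimulating factor. Il1rn was most like Cd300lb (0.89 and 0.9), Slc15a3 (0.87 and 0.92) and Cd44 (0.87 and 0.89). Il18 was most like Psap (0.94 and 0.93), Irf5 (0.92 and 0.94) and Ctsz (0.9 and 0.93), and the Il18 pattern was unlike that of any other member, the closest being Casp1 (0.52 and 0.34). Tnfaip3 was most like Txnrd1 (0.88 and 0.82), Casp1 like Adap1 (0.8 and 0.77) and Tnf like Fpr2 (0.7 and 0.77).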

How the data were processed

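CD45+ Dapi- cells were sorted from BAT after 30 min of collagenase digestion at 37 °C and sequenced with the 10x Genomics 3′ kit (v3.1 chemistry), 1 library per condition. The authors aligned reads to mm10 and counted unique molecular identifiers (UMIs) with Cell Ranger 4.0.0. The deposited values are raw UMI counts per gene and barcode (2597 control and 2381 Adipo Δ/Δ barcodes, 11327187 and 12028844 UMIs).

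Cells needed 200 detected genes or more and a mitochondrial share no higher than 10%, which left 87.8% of the control barcodes and 84.7% of those of Adipo Δ/Δ. The study's limit was 2%, which was run as an alternative. The libraries were normalised with SCTransform and integrated (Seurat 5.3.0, sctransform 0.4.2, R 4.3.3) on 1953 of 2000 variable genes. The members, pathway genes and genes named in the study, 47 in all, were dropped from them. An alternative kept all 47 among the clustering genes. 20 principal components were clustered at resolution 1. A cluster was named from the best of 12 class marker lists, by its mean z score (at least 0.5, or at least 1.0 on a macrophage subset list, which alone admitted the matrix group), when at least 3 markers were detected in 10% of its cells and 1 of its own markers was among its top 10 genes, and this rule was settled after the clusters were seen. Scrublet in Scanpy 1.11.5 marked 0.308% and 0.252% of barcodes and so did not work as a doublet caller. Its marks and cells with mixed markers (17 and 14 cells) were left out in an alternative.

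UMIs were summed per class and library and divided by all UMIs of the class (CPM). Poisson intervals were used for CPM, Clopper-Pearson intervals for shares of cells and conditional binomial intervals for ratios (Python 3.11.15, NumPy 2.4.6, SciPy 1.17.1, pandas 2.3.3, matplotlib 3.10.9). No test between conditions was made. To compare shares of cells, each cell was thinned to 1000 UMIs, leaving out 199 control and 259 Adipo Δ/Δ cells below that depth. The named pathway genes were those with the largest ratios past 1.5-fold among genes with at least 100 UMIs in a class, and the like genes were the 3 with the highest r in the poorer of the libraries. The members and lists were chosen with earlier results of these data known. Scripts were tested on simulated counts.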

Additional observations from a re-analysis of the deposited data

Results flagged for a closer look

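Differences between cell classes in the ratio of Adipo Δ/Δ to control were not tested, since each condition had 1 library. They are given where a member was called higher in a population and lower in another, each with an interval that left out 1. The pooled classes of Ly6C low monocytes and of macrophages were not counted for this.

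For Il1b the ratios were 1.63 in neutrophils, 1.99 in the Gngt2 cluster of Ly6C low monocytes, 13 in matrix macrophages, 2.75 in dendritic cells and 3.50 in B cells, against 0.184 in M2-like macrophages and 0.276 in NK cells. The neutrophil ratio rested on UMIs spread over 304 control and 170 Adipo Δ/Δ cells. In the others, 1 to 5 cells of a library held a large part of the UMIs.

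For Casp1 the ratios were 0.534 in neutrophils and 2.70 in T cells. For Tnfaip3 they were 4.12 in neutrophils, 2.53 in macrophages without a subset and 3.36 in dendritic cells, against 0.326 in the Gngt2 cluster.

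The barcodes left out for few genes or a high mitochondrial share also held Il1b. It was 2510.1 CPM in 318 control barcodes (1441 UMIs, median mitochondrial share 17.8%) and 293 CPM in 365 Adipo Δ/Δ barcodes (209 UMIs, 20.0%). Il1r2 in the same barcodes was 61.0 CPM (35 UMIs) in control and 5.61 CPM (4 UMIs) in Adipo Δ/Δ.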

How the results depend on the processing

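No paired analysis was possible because each condition had 1 library, and for the same reason no replicate could be left out. Leaving out the highest cell of each library, or cells with at least 10 Il1b or Il1rn UMIs outside neutrophils, was added after seeing the data. Of 457 ratios recomputed, 27 lay on the other side of 1, 17 of them within their counting interval. Another 5 were called ratios. They were Tnf in neutrophils (0.973 at the study's 2% mitochondrial limit) and Il1b in M2-like macrophages (1.01 without marked and mixed-marker cells, 1.06 without cells of at least 10 UMIs). The others were Il18 in M2-like macrophages (0.889 with the 47 dropped genes kept among the clustering genes) and Il1b in dendritic cells (0.767 without cells of at least 10 UMIs). The last 5 were not called and left their interval. They included Il1b in Ly6C high monocytes (0.846 at 2%, 0.834 with the 47 genes kept) and in macrophages (1.27 with the mean of per-cell CPM). The others were Il1b in macrophages without a subset (0.601 without cells of at least 10 UMIs) and Il18 in macrophages (1.31 at resolution 2.0). Of the other values, 80 of 890 levels and 35 of 80 shares of cells moved.

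Members called higher in neutrophils numbered 3 at mitochondrial limits of 5% and 2% and at a fold of 2, and those called lower 0 at a fold of 2 and with at least 100 UMIs. Members called lower in Ly6C high monocytes numbered 1 with the features kept (all 47 dropped genes), with the mean of per-cell CPM and without the highest cell. In Ly6C low monocytes 0 were higher at a fold of 2, and 0 lower at a fold of 2 and with the features kept. In macrophages 1 was lower at 5%, at 2% and with the per-cell mean. Il1rn UMIs per 100 Il1b UMIs in Adipo Δ/Δ were 4.31 in neutrophils and 46.6 in Ly6C low monocytes with the features kept. In Ly6C high monocytes they were 51.1 at 2%, 56.1 with the features kept and 72.3 with the per-cell mean. In macrophages they were 158 at 2%, 242 with the features kept and 256 without the highest cells. They were 319 at resolution 2.0, where the cluster led by Aif1 was unnamed and outside the class. The cause of these changes was not tested. Scaling without mitochondrial, ribosomal and haemoglobin genes moved the median of all genes by at most 0.04 (log2).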
